A study of Mus musculus with 12 samples.

Results

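Profilins, cofilins, actins and beta-thymosins were followed across the cortex of 12 adult female mice on microarrays: 9 genes of the 17302 that could be quantified. The genes are Pfn1, Pfn2, Cfl1, Cfl2, Dstn, Actb, Actg1, Tmsb4x and Tmsb10. They were taken by gene name, and the set was chosen by 1 measured difference, the signal of Pfn1 in MRL/+ mice against both groups that carry the lpr mutation. That difference is therefore given as a description with no test. The other 8 genes are set beside it as its relatives and partners.

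These proteins set the balance between free actin subunits and actin filaments. Profilin binds the actin monomer, exchanges its nucleotide and hands it to formins and Ena/VASP proteins at the growing filament end. The ADF/cofilin family, which cofilin 1, cofilin 2 and destrin make up, severs and takes apart old filaments, and the beta-thymosins hold monomers in reserve. In cortical neurons the same machinery shapes dendritic spines, growth cones and the layout of synapses. Pfn2 encodes the brain-enriched profilin and Pfn1 the one found in nearly all cells.

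The 3 groups held 4 mice each, all killed at the diestrus phase of the cycle. MRL/lpr mice carry the lpr loss-of-function mutation of Fas on the MRL background and develop a lupus-like disease. Fn14ko mice are littermates of the MRL/lpr mice that also carry lpr and in addition lack Fn14, the receptor of the cytokine TWEAK. MRL/+ mice (MRL/MpJ) have neither change. Both lpr groups were bred together, whereas MRL/+ mice were bought from another supplier. Each of the 6 arrays held 2 mice of 1 group, 1 labelled with Cy3 (odd replicate numbers) and 1 with Cy5 (even numbers). By the slide barcodes, each group had a slide of its own. Slide, supplier of MRL/+ and genotype cannot be told apart in any comparison against MRL/+. Between the lpr groups, slide cannot be told apart from genotype. Any step done slide by slide goes with the slide.

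The signal given here is the background-corrected brightness divided by the median of all retained spots in the same mouse, so 1 is the median spot. A level was compared between mice only within 1 gene or 1 probe, apart from the summed signals of cell type markers. Such a sum gives most weight to the brightest genes of its list. Of 21 probes named for these genes, 18 were bright enough in all 12 mice to be retained, every gene kept at least 1, and no spot of them was saturated. The share of spots well above background ran from 56.6% to 70.03% in 10 of the channels, while both Cy5 channels of MRL/+ stood apart at 35.0% and 21.2%. The Pfn1 values are therefore also given without those mice. The 1 probe for Tnfrsf12a, which encodes Fn14, gave signals of 0.604 to 0.777 in Fn14ko, 1.38 to 1.90 in MRL/lpr and 0.943 to 1.28 in MRL/+. It was well above background in 4 of 4 Fn14ko mice, 4 of 4 MRL/lpr mice and 3 of 4 MRL/+ mice, so signal remained in Fn14ko. Whether that probe lies in the deleted stretch is not given in the sources used here. Fas, the gene mutated in lpr, was dim, and its groups overlapped, at 0.164 to 0.284 in MRL/lpr, 0.171 to 0.331 in Fn14ko and 0.186 to 0.647 in MRL/+, so its probe did not check the labels of the lpr groups.

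Pfn1 rested on 1 retained probe. The 5′-most probe of Cfl1, at chr19:5493399-5493458 on the plus strand (mm9), is shown because it differed from the other Cfl1 probes. It has no bases in capitals, since no differing bases are compared.
Cfl1 probe A_55_P1974788: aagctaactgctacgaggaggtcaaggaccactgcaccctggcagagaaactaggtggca

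Pfn1 signal in MRL/+ mice was 8.59, 7.37, 10.5 and 7.82 (mean 8.57 ± 1.37, SD, n = 4). In MRL/lpr it was 1.40, 0.682, 1.01 and 1.40 (mean 1.12 ± 0.347), and in Fn14ko 1.08, 1.65, 0.619 and 1.19 (mean 1.14 ± 0.424). All 8 mice with lpr lay far below all 4 MRL/+ mice, and the lpr groups overlapped each other. The log2 fold change against MRL/+ was -2.98 in MRL/lpr (a 7.87-fold lower signal) and -2.99 in Fn14ko (7.93-fold lower), with a standard error of 0.38 in each. Both fold changes use the same MRL/+ mice. Among all 17302 genes Pfn1 had rank 3 from the lowest in MRL/lpr and rank 1 in Fn14ko. These are the values that chose the genes.

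Between MRL/lpr and Fn14ko the log2 difference of Pfn1 was 0.01. Since the choice asked for a like fall in both groups against the same MRL/+ mice, this value follows from it in part and is also given as a description with no test. The spread within the lpr groups, from 0.682 to 1.40 and from 0.619 to 1.65, is wider than that difference, and equal levels were not shown.

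The Pfn1 probe was well above background in 12 of 12 mice, with foreground 9.36 to 391 times the local background. In Cy3 mice only, the log2 fold change was -3.54 in Fn14ko and -2.997 in MRL/lpr. Without both MRL/+ Cy5 mice it was -3.27 in Fn14ko and -3.26 in MRL/lpr. The second Pfn1 probe, A_55_P2003502, was designed on another transcript model. It was well above background in 0 of 12 mice and fell under the brightness limit in 6 of them, so it gave no level for Pfn1. All Pfn1 values here therefore come from 1 probe, and they measure binding to that probe. Whether the Pfn1 sequence under it is the same in all 3 groups was not tested.

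**Figure D1:**
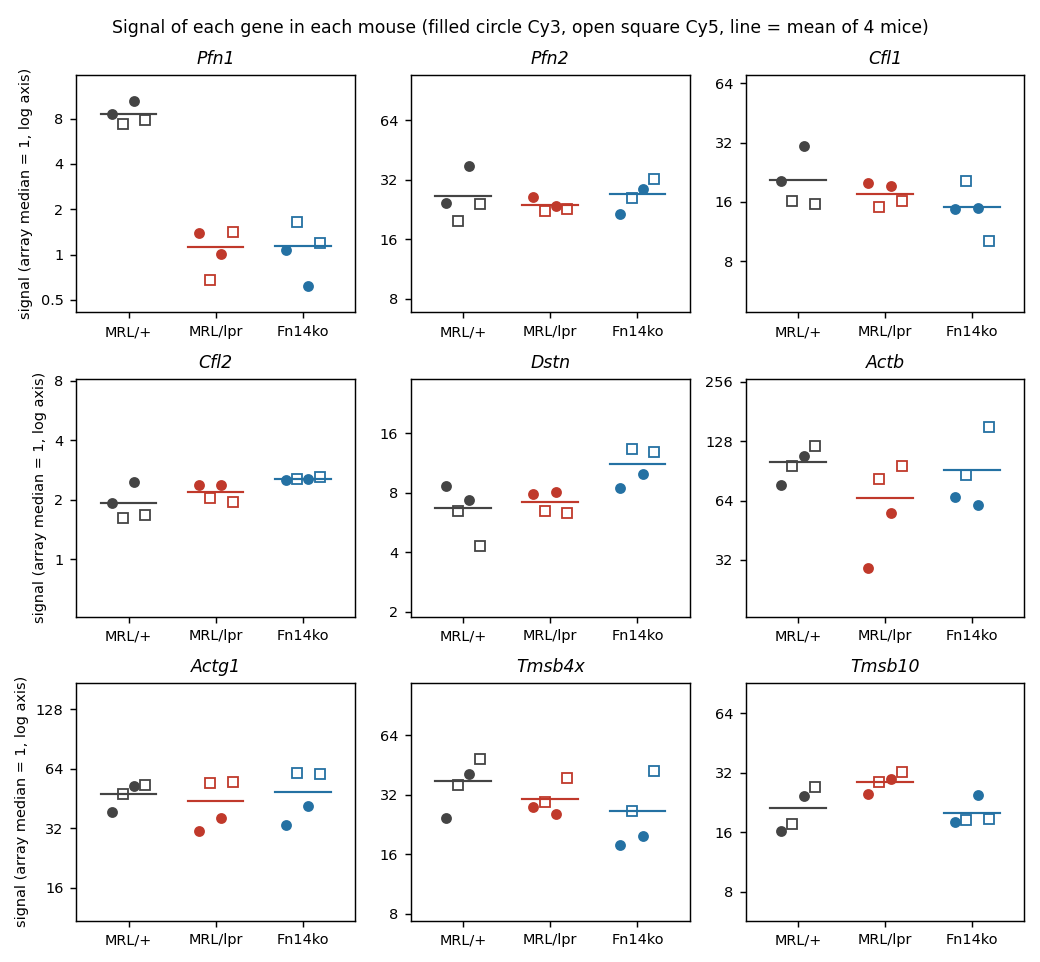
Signal of each of the 9 genes in each mouse (y axis, log scale, array median = 1), with 4 mice per group on the x axis, Cy3 mice as filled circles, Cy5 mice as open squares and the group mean as a line. Pfn1 separates the 4 MRL/+ mice (7.37 to 10.5) from all 8 mice with lpr (0.619 to 1.65), while the groups overlap for Pfn2, Cfl1, Actb, Actg1 and Tmsb4x.

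None of the other 8 genes passed the limma threshold (adjusted p under 0.05) against MRL/+ or between the lpr groups. Over all genes, 14.4% passed when MRL/lpr was compared with MRL/+, 0.954% when Fn14ko was, and 4.57% between the lpr groups, so a count of 0 among so few genes is near the background. At an unadjusted p under 0.05 the limma counts were 1 (Actb), 2 (Cfl2 and Dstn) and 1 (Tmsb10) in the same order, beside 34.7%, 21.9% and 18.6% of all genes. The methods' t-test gave 0, 2 and 3 of these genes at that threshold, Pfn1 against MRL/+ left aside, beside 24.4%, 15.2% and 22.1% of all genes. After adjustment it gave 0 of them in each comparison, beside 4.17%, 0.0116% and 1.05% of all genes. The median log2 fold change of the 8 genes was -0.14, -0.04 and -0.16, beside -0.10, -0.10 and -0.07 over all genes. Groups of mice that do not overlap are named below as a description only. The share of all genes or probes that separate in the same way is not given here, so no separation counts as a result by itself.

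**Figure D2:**
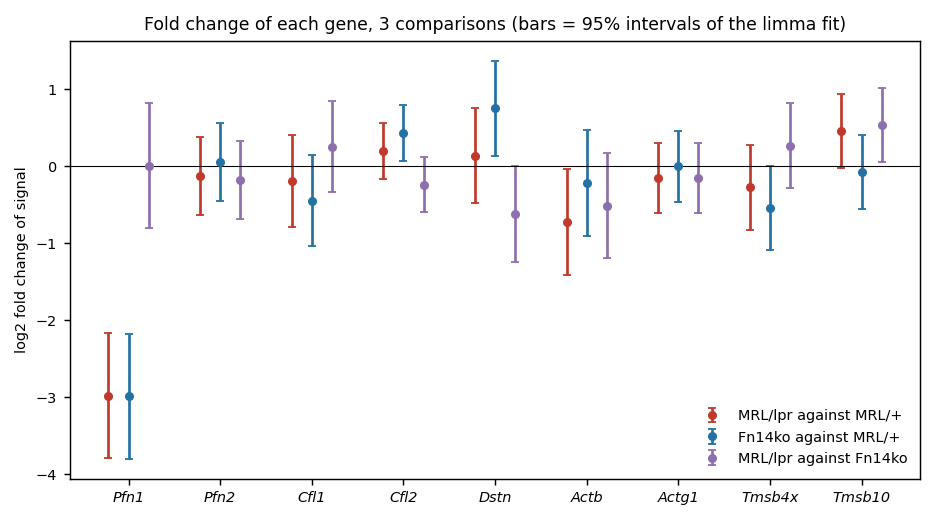
Log2 fold change of each gene (y axis) in the 3 comparisons, with the 95% interval of the limma fit as bars and genes on the x axis. Pfn1 lies near -3 against MRL/+ in both lpr groups and at 0.01 between them, and the other 8 genes lie between -0.72 and 0.76. The Pfn1 values chose the genes, so the Pfn1 bars are a description and test nothing.

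Pfn2, the paralog of Pfn1, had a signal of 24.5, 19.8, 37.5 and 24.2 in MRL/+. It was 26.1, 22.3, 23.7 and 22.8 in the MRL/lpr mice, beside 21.5, 25.8, 28.8 and 32.2 in Fn14ko. All 3 groups overlapped. The log2 fold change was -0.12 in MRL/lpr (95% interval -0.63 to 0.39, adjusted p = 0.730) and 0.05 in Fn14ko (-0.45 to 0.56, adjusted p = 0.889), both from the limma fit. A fall of the size seen for Pfn1 lies outside both intervals. Since the fall of Pfn1 chose the genes, this contrast between the paralogs follows in part from the choice and is a description. In MRL/lpr the value depended on the normalization, being called lower with the scanner software's processed signal (-0.67, adjusted p = 0.0135) and with loess (-0.41, adjusted p = 0.0179), and in none of the other 21 settings. Pfn2 was read from its probe at chr3:57645886-57645945 (mm9), 1 of 3. The other 2 were well above background in 0 of 12 mice. Pfn4, a testis-type profilin, was also quantified and had log2 fold changes of -0.53 in MRL/lpr (adjusted p = 0.121) and -0.19 in Fn14ko (adjusted p = 0.599).

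Cofilin 1 (Cfl1), the main non-muscle cofilin, had gene-level signals of 15.6 to 30.6 in MRL/+, 15.1 to 19.9 in MRL/lpr and 10.2 to 20.4 in Fn14ko. The limma log2 fold changes were -0.19 (adjusted p = 0.632) and -0.45 (adjusted p = 0.314) against MRL/+. With the processed signal Cfl1 was called lower in both, at -0.86 (adjusted p = 0.0128) and -1.02 (adjusted p = 0.0137). Its 3 probes did not move together. The 5′-most probe, printed above, gave 15.3, 11.13, 21.0 and 11.3 for the MRL/+ mice. For MRL/lpr it gave 10.2, 4.15, 8.02 and 6.32, and for Fn14ko 9.16, 10.9, 8.52 and 2.93. Every MRL/+ mouse was above every mouse with lpr. On the log2 scale it differed by -1.06 in MRL/lpr (95% interval -1.88 to -0.24, limma adjusted p = 0.0746 over all probes) and -1.01 in Fn14ko (adjusted p = 0.163), so it did not pass the threshold in either.

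The other Cfl1 probes lie at chr19:5493882-5493941 and chr19:5493949-5494008, further toward the 3′ end. Their log2 fold changes in MRL/lpr were 0.09 and -0.04. In Fn14ko they were 0.06 and -0.61, with limma adjusted p = 0.914 and 0.183. The 3′-most of them was the 1 that separated the lpr groups without overlap, at 25.9 to 28.1 in MRL/lpr and 15.2 to 22.8 in Fn14ko (log2 difference 0.57, limma adjusted p = 0.259). It shares 3 stretches of 20 bases with a Tenm1 probe on the same strand. With probes for Wnt5a and Fbn2 it shares 2 and 1 on the opposite strand. The 5′-most Cfl1 probe shares 1 with a probe on chromosome 12. Binding of RNA from other genes was not tested.

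Cofilin 2 (Cfl2), the muscle-type cofilin that neurons also express, had signals of 1.92, 1.62, 2.46 and 1.68 in MRL/+. The values were 2.38, 2.04, 2.37 and 1.94 in the MRL/lpr mice, beside 2.53, 2.57, 2.55 and 2.6 in Fn14ko. All 4 Fn14ko mice were above all others and lay close together. The brighter Cfl2 probe, A_66_P100159, carried this, at 0.49 in Fn14ko against MRL/+ on the log2 scale (limma adjusted p = 0.170), while groups overlapped for the other, A_51_P302149, at 0.07 (adjusted p = 0.814). For the gene, the log2 fold change in Fn14ko against MRL/+ was 0.43 (95% interval 0.07 to 0.80, exact 2-sided permutation p = 0.0286, limma adjusted p = 0.177). In MRL/lpr against Fn14ko the log2 difference was -0.24 (exact permutation p = 0.0286, limma adjusted p = 0.508). The smallest p that 4 against 4 mice can give is 0.0286, and 25 such tests were run on genes and 52 on single probes, so these values do not stand as calls.

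Destrin (Dstn), the ADF member of the family, had signals of 8.66, 6.49, 7.37 and 4.30 in MRL/+. It was 7.90, 6.51, 8.07 and 6.32 in the MRL/lpr mice, beside 8.50, 13.3, 9.92 and 12.9 in Fn14ko. In Fn14ko 3 mice were above every other mouse, and the lowest Fn14ko mouse, at 8.50, was below the highest MRL/+ mouse. The limma log2 fold change in Fn14ko was 0.76 against MRL/+ (95% interval 0.14 to 1.37, adjusted p = 0.173). MRL/lpr lay below Fn14ko without overlap, with a log2 difference of -0.62 (exact permutation p = 0.0286, adjusted p = 0.269). No call was made on either scale over all genes.

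Cytoplasmic beta-actin (Actb), a gene often used as a loading reference, varied widely within groups. The MRL/+ mice had 76.3, 95.3, 108 and 121, the MRL/lpr mice 29.2, 82.3, 55.4 and 96.2, and signals were 66.7, 85.7, 60.9 and 150.1 in Fn14ko. In both lpr groups the Cy5 mice were above the Cy3 mice, and the groups overlapped. The log2 fold change in MRL/lpr against MRL/+ was -0.72 (95% interval -1.41 to -0.04), with an unadjusted limma p of 0.0400 and an adjusted p of 0.127. In Fn14ko it was -0.22 (adjusted p = 0.664). The MRL/lpr value was below 0 under all 23 other settings tried and past the threshold under 6 of them, at -1.22 with the scanner software's processed signal.

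Gamma-actin (Actg1) had gene-level signals of 38.7 to 52.6 in MRL/+, 30.9 to 54.9 in MRL/lpr and 33.1 to 61.0 in Fn14ko, with log2 fold changes of -0.15 (adjusted p = 0.621) and 0.00065 (adjusted p = 0.999) in the limma fit. With the processed signal it was called lower in both, at -0.99 (adjusted p = 0.000303) and -0.74 (adjusted p = 0.00457), and in MRL/lpr also with spots well above background in all mice (-0.35, adjusted p = 0.0431). It had 5 retained probes. A pair lies at the 3′ end and 3 overlap further upstream, between chr11:120208361 and chr11:120208468 on the minus strand (mm9). The 3 upstream probes are shown because 1 of them, A_55_P2008907, gave a lower log2 fold change in MRL/lpr against MRL/+ than its overlapping neighbours did. Capitals mark the bases at which probes A_55_P1985984 and A_52_P72237 differ over the 50 bases they share.
Actg1 probe A_55_P2008907: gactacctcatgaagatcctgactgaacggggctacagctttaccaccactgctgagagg
Actg1 probe A_52_P72237: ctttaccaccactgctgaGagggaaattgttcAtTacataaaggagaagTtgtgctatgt
Actg1 probe A_55_P1985984: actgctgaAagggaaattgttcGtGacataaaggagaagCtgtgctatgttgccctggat

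Counted from 1 at the 5′ end of A_55_P1985984, with its base first and that of A_52_P72237 last, the 4 differences are A9G, G23A, G25T and C40T. A_52_P72237 and A_55_P2008907 share 22 bases with no difference. The first of the 3 as printed, A_55_P2008907, gave 45.04, 53.6, 57.3 and 64.2 in MRL/+. It gave 19.8, 18.8, 36.9 and 47.5 in the MRL/lpr mice, beside 37.1, 43.1, 41.4 and 42.1 in Fn14ko. All Fn14ko mice and 3 of the MRL/lpr mice were below every MRL/+ mouse. The log2 fold change in MRL/lpr was -0.94 (95% interval -1.55 to -0.34), which passed the threshold over single probes (limma adjusted p = 0.0398), and in Fn14ko it was -0.42 (adjusted p = 0.335).

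The other upstream probes gave -0.35 (A_52_P72237, adjusted p = 0.228) and -0.31 (A_55_P1985984, adjusted p = 0.464) in MRL/lpr, and the 3′ pair gave -0.18 and 0.49. For A_52_P72237 all MRL/lpr mice (9.90 to 12.5) were below all MRL/+ mice (13.1 to 16.4). Of the actins of muscle type, Acta2 had log2 fold changes of 0.91 in MRL/lpr (adjusted p = 0.111) and 1.12 in Fn14ko (adjusted p = 0.141), and Acta1 0.34 and -0.43, with no call.

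Thymosin beta-4 (Tmsb4x), a major store of actin monomers, had signals of 24.3 to 48.8 in MRL/+, 25.7 to 39.1 in MRL/lpr and 17.8 to 42.0 in Fn14ko. The log2 fold changes were -0.27 (adjusted p = 0.448) and -0.54 (adjusted p = 0.235) in the limma fit. Its bright probe carried these values. Tmsb4x was called lower under 2 of 23 other settings in MRL/lpr and 3 of 23 in Fn14ko, at -0.86 in MRL/lpr with the median of probes. The dim probe A_55_P2061739, designed on another transcript model at chrX:163646256-163646315, gave 0.433, 0.580, 0.290 and 0.515 for the MRL/+ mice, against 0.133, 0.186, 0.133 and 0.198 for MRL/lpr. The groups did not overlap, and the log2 fold change of -1.46 passed the threshold (95% interval -2.16 to -0.77, limma adjusted p = 0.0110). The probe stood well above background in 2 of 4 MRL/lpr mice, 2 of 4 MRL/+ mice and 4 of 4 Fn14ko mice. The log2 fold change of -1.46 therefore rests on signal close to background. The dim Pfn1 probe A_55_P2003502, well above background in no mouse, read 0.0899 to 0.518 in MRL/+ and 0.0681 to 0.137 in MRL/lpr. The dim Pfn2 probe A_55_P2159405 read 0.0686 to 0.508 and 0.0492 to 0.125 in the same order. For A_55_P2159400 of Pfn2 the ranges were 0.0883 to 0.544 and 0.0624 to 0.126. On each of these dim probes the groups overlapped. The part of such a difference near background in the Tmsb4x value was not tested.

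Thymosin beta-10 (Tmsb10), the related monomer-binding protein that is high in developing brain, had signals of 16.2, 17.6, 24.3 and 27.2 in MRL/+. It had 24.9, 28.7, 29.6 and 32.1 in the MRL/lpr mice, beside 18.0, 18.5, 24.7 and 18.6 in Fn14ko. All 4 MRL/lpr mice were above all Fn14ko mice, by a narrow margin at the nearest pair. The log2 difference was 0.54 (95% interval 0.06 to 1.01, exact permutation p = 0.0286, limma adjusted p = 0.213). Against MRL/+ the log2 fold change was 0.46 in MRL/lpr (adjusted p = 0.153) and -0.07 in Fn14ko (adjusted p = 0.844). Both Tmsb10 probes overlap by 57 bases with 3 differences, so they are not separate measurements. They also share stretches of 20 bases with a probe placed on chromosome 3 that carries no gene name. There were 8 such stretches for A_55_P2168990 and 10 for A_55_P2092085. Binding of RNA from elsewhere to the Tmsb10 probes was not tested.

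**Figure D3:**
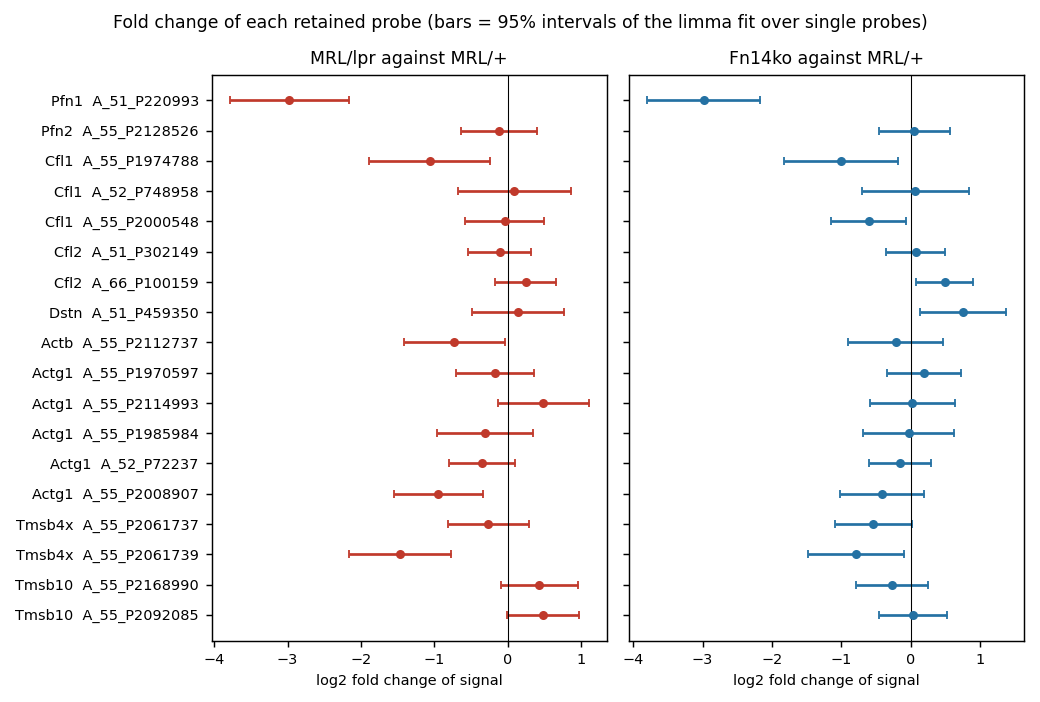
Log2 fold change of each of the 18 retained probes (y axis) on the x axis, against MRL/+, in MRL/lpr on the left and Fn14ko on the right, with 95% intervals of the limma fit over single probes as bars. In MRL/lpr the Pfn1 probe lies at -2.98, and the 5′-most probes of Cfl1, Actg1 and Tmsb4x lie at -1.06, -0.94 and -1.46, below the 3′-most probes of the same genes. For Cfl2 the 5′-most probe lies at 0.25, above the 3′-most at -0.11. The Pfn1 values chose the genes, so the Pfn1 bars are a description and test nothing.

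Over all 22419 probes, 15.0% passed the threshold when MRL/lpr was compared with MRL/+, 1.09% when Fn14ko was, and 4.03% between the lpr groups. Of the 17 probes outside Pfn1, 2 passed for MRL/lpr and MRL/+ (A_55_P2008907 and A_55_P2061739), none for Fn14ko and MRL/+, and none between the lpr groups, so these counts are not above the background.

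Position along the gene moved with the comparisons against MRL/+ over the whole array. In 3893 genes with retained probes at least 60 bases apart, the log2 fold change of the 5′-most probe minus that of the 3′-most had a median of -0.32 in MRL/lpr and -0.30 in Fn14ko. The 5′ probe was the lower one in 66.1% and 66.8% of them. Between MRL/lpr and Fn14ko the median was -0.06 (55.4%). In the 1716 genes whose probes lie within 2000 bases, as those of the 4 members below do, the medians against MRL/+ were -0.18 (60.5%) and -0.16 (59.6%). In Cy3 mice only, the medians over all 3893 genes were -0.22 and -0.14. The same difference in MRL/lpr was -1.02 for Cfl1, -0.77 for Actg1, -1.20 for Tmsb4x and 0.35 for Cfl2. In Fn14ko it was -0.40, -0.61, -0.25 and 0.42 in that order. Pfn1 has no second retained probe, so this difference could not be had for it, and the part of probe position in its value was not tested.

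Base content also moved with the comparisons against MRL/+. Probes with over 50% G and C had a median log2 fold change of -0.29 in MRL/lpr and -0.28 in Fn14ko, against -0.08 and -0.07 for those under 40%. The Pfn1 probe, the 5′-most Cfl1 probe and both Tmsb10 probes hold 55.0% G and C. The Actg1 probe A_55_P2008907 and the Cfl1 probe A_52_P748958 hold 53.3%. In MRL/lpr the log2 fold changes were 0.43 and 0.48 for the Tmsb10 probes, -0.94 for A_55_P2008907 and 0.09 for A_52_P748958. The part of base content in the Pfn1 value was not tested.

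**Figure D4:**
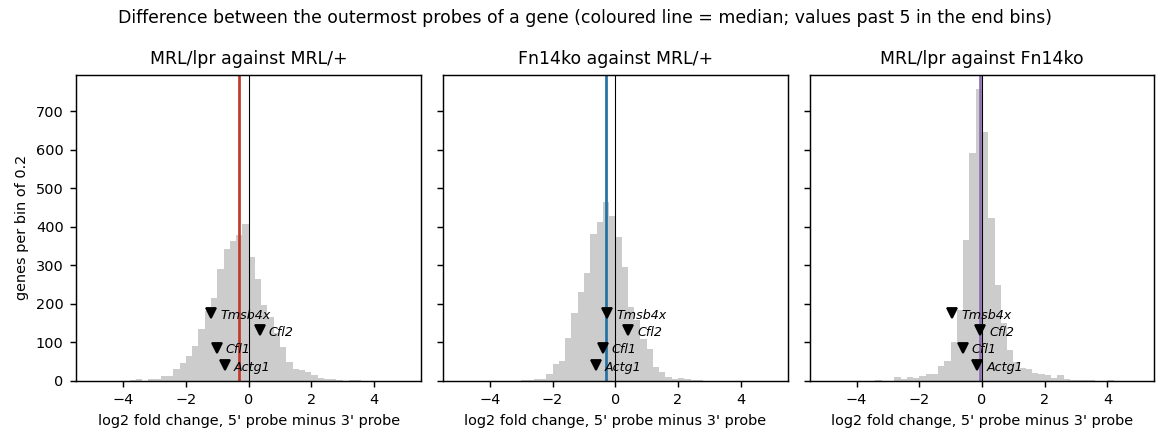
Number of genes (y axis) by the log2 fold change of the 5′-most minus the 3′-most retained probe (x axis) in each comparison, over 3893 genes, with the median as a coloured line and triangles for the 4 members with such a pair (their height has no meaning). Against MRL/+ the medians lie at -0.32 and -0.30, and between the lpr groups at -0.06.

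Genes whose signal followed Pfn1 most closely over the 12 mice were named by Pearson's r of the log2 signal, as a description. They were Zhx1 (r = 0.988), Tm9sf3 (0.988), Supt16 (0.984), Igsf11 (0.982) and Ubfd1 (0.979). The mice fall into an MRL/+ and an lpr cluster on these genes, so r mostly restates that split. Their log2 fold changes were -1.74, -1.51, -1.41, -2.18 and -1.71 in MRL/lpr, in that order. Over the same mice r with Pfn1 was 0.120 for Pfn2, 0.494 for Cfl1, -0.553 for Cfl2, -0.403 for Dstn, 0.372 for Actb, 0.139 for Actg1, 0.499 for Tmsb4x and -0.320 for Tmsb10.

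Genes beside Pfn1 on chromosome 11 went both ways in MRL/lpr, and none of the neighbours named here passed the threshold in Fn14ko against MRL/+. On the mm9 placement of the probes, Slc25a11 and Rnf167 lie on one side and Eno3, Spag7, Camta2 and Inca1 on the other. In MRL/lpr against MRL/+, Spag7 rose by 1.05 on the log2 scale (limma adjusted p = 0.00688), while 1 of the Inca1 probes fell by 1.39 (adjusted p = 0.0359) and 1 of the Camta2 probes by 0.83 (adjusted p = 0.0253). The other probes of Inca1 and Camta2 did not pass, at -0.74 and 0.09. The probes of Rnf167, the nearest gene, were at -0.82 (adjusted p = 0.0339) and 1.00 (adjusted p = 0.00383). Slc25a11 and Eno3 had 0.67 and 0.37 with no call. Further out, Pld2 (0.05), Mink1 (-0.18 and 0.02) and Kif1c (0.03) were near 0 and not called. None of these was as low as Pfn1. Between the lpr groups Spag7 was called, at 0.91 higher in MRL/lpr (adjusted p = 0.0266).

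The wider actin pathway was read from 95 further genes in 12 groups, of which 84 could be quantified. In MRL/lpr against MRL/+, 4 rose and 5 fell in the limma fit, beside 6.03% of all genes rising and 8.37% falling. In Fn14ko against MRL/+, 0 rose and 1 fell (all genes 0.237% and 0.717%). In MRL/lpr against Fn14ko, 2 rose and 1 fell (all genes 2.58% and 1.99%). These adjusted counts are near the background. At an unadjusted p under 0.05, limma gave 10 higher and 14 lower in MRL/lpr (28.6% of 84, beside 34.7% of all genes) and 19 higher and 10 lower in Fn14ko (34.5%, beside 21.9%). Between the lpr groups it gave 7 and 8 (17.9%, beside 18.6%). The Fn14ko share is above that of all genes, and the difference was not tested. Under the methods' t-test after adjustment the counts were 1 and 1, 0 and 0, and 1 and 0, where 721, 2 and 181 of all genes passed.

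Among cofilin partners and relatives, 2 of 12 fell in MRL/lpr against MRL/+ and none rose, beside 8.37% and 6.03% of all genes. Counts in so few genes do not set this group apart from all genes. Wdr1 encodes AIP1, which works with cofilin to take filaments apart. Its signal was 5.73 to 7.52 in MRL/+, 1.10 to 1.64 in MRL/lpr and 1.39 to 2.32 in Fn14ko, with no overlap between MRL/+ and either lpr group. It fell by 2.22 on the log2 scale in MRL/lpr (4.66-fold lower, SE 0.23, limma adjusted p = 0.000259), and in Fn14ko it fell by 1.86 (3.64-fold lower, adjusted p = 0.00601). The Fn14ko call held in 19 of 23 other settings (log2 fold change -2.11 to -1.14) and was lost without MRL/+ replicate 4. Cap1, the cyclase-associated protein that recharges actin released by cofilin, fell by 0.85 in MRL/lpr (adjusted p = 0.0382), and in Fn14ko its log2 fold change was -0.74 (adjusted p = 0.138). The Cap1 call was lost without MRL/lpr replicate 1, 2 or 4.

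Of the profilin-binding elongators, which take up profilin-bound actin, 1 of 10 fell in MRL/lpr against MRL/+, beside 8.37% of all genes. This was Vasp, at 0.446 to 0.687 in MRL/+ and 0.214 to 0.270 in MRL/lpr (log2 fold change -1.29, SE 0.30, limma adjusted p = 0.0144). In Fn14ko its log2 fold change was -0.99 (adjusted p = 0.110). Its probe was not well above background in all 12 mice, and the call held in 19 of 22 other settings (-1.59 to -0.69). The dim Pfn1 probe A_55_P2003502 read 0.0899 to 0.518 in MRL/+ and 0.0681 to 0.137 in MRL/lpr. The part of such a difference near background in the Vasp value was not tested. Wasf2, a WAVE protein that switches on the Arp2/3 complex, fell by 0.96 (adjusted p = 0.00936) as 1 of 12 activators, beside a log2 fold change of -0.59 in Fn14ko (adjusted p = 0.144). Of its 3 retained probes, 1 was well above background in all 12 mice. The Wasf2 call held in 17 of 23 other settings (-1.21 to -0.36) and was lost without MRL/+ replicate 4. Arpc5, a subunit of that complex, fell by 0.83 (adjusted p = 0.0321) as 1 of 10, beside a log2 fold change of -0.06 in Fn14ko (adjusted p = 0.882). The Arpc5 call was lost without MRL/lpr replicate 1, 2 or 4.

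Side-binding and bundling proteins had 2 of 11 higher in MRL/lpr against MRL/+ and none lower, beside 6.03% and 8.37% of all genes. Counts in so few genes do not set this group apart from all genes. Actn4, an alpha-actinin that crosslinks filaments, had signals of 6.99 to 7.83 in MRL/lpr, 3.26 to 4.22 in Fn14ko and 2.58 to 3.22 in MRL/+. The MRL/lpr mice were above all other mice. Actn4 rose 2.69-fold against MRL/+ (log2 fold change 1.42, SE 0.17, limma adjusted p = 0.000578) and 1.95-fold against Fn14ko (0.96, adjusted p = 0.00711), and each call held in 22 of 23 other settings, being lost with no filter on dim spots. Tpm4, a tropomyosin, rose by 0.56 in MRL/lpr (adjusted p = 0.0493), and in Fn14ko its log2 fold change was 0.59 (adjusted p = 0.110). The Tpm4 call was lost without MRL/lpr replicate 1, 3 or 4, or without MRL/+ replicate 1, 2 or 4. Tmod1, which caps the slow-growing filament end, rose by 0.84 in MRL/lpr (adjusted p = 0.0137), and in Fn14ko its log2 fold change was 0.88 (adjusted p = 0.0515). Its 1 probe was not well above background in all 12 mice, and the call held in 15 of 22 other settings (0.61 to 1.44), being lost without MRL/+ replicate 4 among others.

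Enzymes that switch cofilin off or on by phosphate were quantified for 7 of 8. Limk1, a kinase that inactivates cofilin, was at 2.96 to 4.70 in MRL/lpr and 1.54 to 2.14 in Fn14ko, and rose by 1.19 on the log2 scale between them (SE 0.24, limma adjusted p = 0.0137). The MRL/+ mice, at 2.23 to 4.30, overlapped with MRL/lpr and lay above all Fn14ko mice (log2 fold change of Fn14ko -0.84, adjusted p = 0.103). The call between the lpr groups held in 19 of 23 other settings and was lost without Fn14ko replicate 2. Ssh3, of the slingshot phosphatases that reactivate cofilin, rose by 1.14 in MRL/lpr against MRL/+ (adjusted p = 0.00839), at 1.505 to 2.46 against 0.746 to 0.937. Its 1 probe was not well above background in all 12 mice, and the call held in 18 of 22 other settings (0.91 to 1.74), being lost without MRL/+ replicate 4 among others. Gsn, the severing protein gelsolin, was the 1 regulator of the 84 called lower in MRL/lpr than in Fn14ko (log2 difference -0.86, adjusted p = 0.0320), and this call held in 14 of 23 other settings and was lost with any of 5 mice left out (MRL/lpr replicates 1, 2 and 3, Fn14ko replicates 1 and 2).

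**Figure D5:**
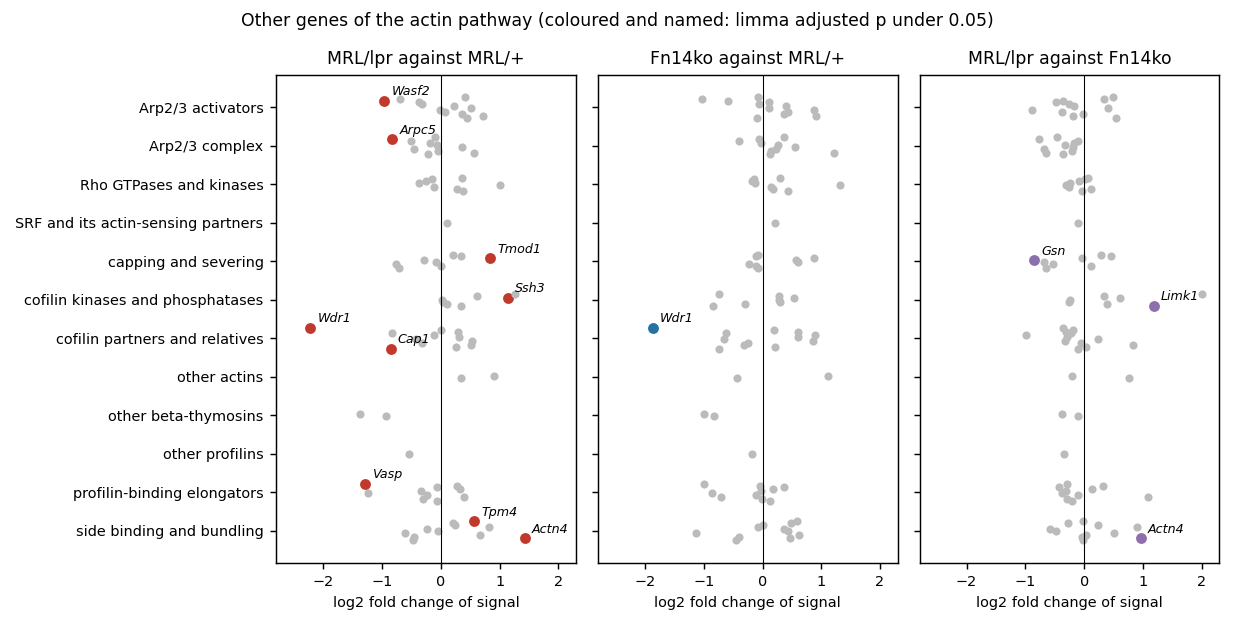
Log2 fold change (x axis) of 84 other genes of the actin pathway by functional group (y axis) in the 3 comparisons, 1 point per gene, with genes past the limma threshold in colour and named. Wdr1 is the lowest named point of both lpr groups against MRL/+, at -2.22 and -1.86, and Actn4 is higher in MRL/lpr in both of its comparisons.

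The p-values above measure the spread between these 12 mice only. The tissue was cortex with all its cell types, so fewer cells of a type and less RNA per cell cannot be told apart for any of these genes. Marker lists of other cell types are given as measured. Over all genes, 6.03% were called higher and 8.37% lower in MRL/lpr against MRL/+. These shares were 0.237% and 0.717% for Fn14ko against MRL/+, and 2.58% and 1.99% for MRL/lpr against Fn14ko. The summed signal of 5 endothelial genes was 9.78 to 13.1 in MRL/+, 18.6 to 20.7 in MRL/lpr and 15.0 to 19.6 in Fn14ko, with 1 of 5 higher in each lpr group against MRL/+. The 4 erythroid genes summed to 113 to 286 in MRL/lpr, 39.6 to 115 in Fn14ko and 35.4 to 61.5 in MRL/+, with 2 of 4 higher in MRL/lpr against MRL/+ and 1 of 4 against Fn14ko. The 6 excitatory neuron genes summed to 36.0 to 42.9 in MRL/lpr, 44.5 to 64.9 in Fn14ko and 52.4 to 78.4 in MRL/+, with 3 of 6 lower and 1 higher in MRL/lpr against MRL/+ and 1 of 6 lower against Fn14ko. Oligodendrocyte genes (5) summed to 35.5 to 55.1 in MRL/lpr, 52.1 to 65.1 in Fn14ko and 49.2 to 58.6 in MRL/+, with 1 of 5 lower in MRL/lpr against either group. Interneuron genes (6) summed to 65.2 to 69.9 in MRL/lpr, 64.9 to 90.3 in Fn14ko and 48.1 to 70.8 in MRL/+, with 2 of 6 higher in MRL/lpr against MRL/+ and 1 of 6 against Fn14ko. Smooth muscle and pericyte genes (6) had median log2 fold changes of 0.76 in MRL/lpr, with 1 of 6 higher, and 0.75 in Fn14ko, and their sums overlapped at 8.29 to 16.4, 7.80 to 16.9 and 7.73 to 12.8 for MRL/lpr, Fn14ko and MRL/+. Astrocyte genes (5) overlapped, at 18.3 to 21.8, 20.6 to 23.7 and 16.5 to 23.5 in the same order. Microglia (6 genes) overlapped, at 27.7 to 40.01, 25.8 to 38.0 and 28.6 to 37.5 in MRL/lpr, Fn14ko and MRL/+, with 1 of 6 higher in MRL/lpr against MRL/+. Choroid plexus genes (5) ranged from 6.46 to 98.5, 13.1 to 179 and 16.3 to 263 in that order, with 1 of 5 lower in MRL/lpr against MRL/+ and against Fn14ko. The 4 striatal genes summed to 12.07 to 21.5 in MRL/lpr, 8.75 to 93.7 in Fn14ko and 6.90 to 8.90 in MRL/+, with no gene called. The part of these cell types in the profilin, cofilin and actin values was not tested.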

How the data were processed

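Mean foreground and median local background intensities of 6 two-colour Agilent arrays, deposited per array, were used. Per the file headers they came from Feature Extraction 12.1.0.3 with probes placed on mm9, and the deposited intensities were not normalized between arrays. Groups came from the labels. Controls, spots marked as outliers and spots under 2 times background in any of 12 mice were left out. The rest were corrected for background by normexp (offset 50), and each channel was divided by its median. A gene is the mean of its spots. log2 signals were fitted in limma 3.58.1 (R 4.3.3) with group and dye, array as a random block (correlation 0.316), and Benjamini-Hochberg adjustment over all 17302 genes or 22419 probes, with 0.05 as threshold. The fit was tested on simulated data, and the outcome is not reported here. Named genes were the 9 members, the 3 highest and 3 lowest called actin regulators per comparison, and 5 genes most correlated with Pfn1; Arpc5, Cap1, Tpm4, Pfn4, Acta1, Acta2 and the chromosome 11 neighbours were named after their values were seen. Members and lists were chosen with earlier results of these data known. Intensities give no counts, and 4 mice per group limit the precision. The sequence of the Pfn1 probe is not reported here.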

Additional observations from a re-analysis of the deposited data

Results flagged for a closer look

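Across 27 groups of 4 signals (9 genes in 3 groups), 1 held a mouse far from the others by Dixon's test, against about 1 in 20 by chance. Tmsb10 in Fn14ko replicate 3 had a signal of 24.7, while the other mice of that group lay between 18.0 and 18.6. It is also the Fn14ko mouse nearest to the MRL/lpr range.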

How the results depend on the processing

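Counts below give members called other than Pfn1 in MRL/lpr against MRL/+, Fn14ko against MRL/+ and MRL/lpr against Fn14ko, then regulators higher and lower in the same order, where the reported values are 0, 0 and 0, then 4 and 5, 0 and 1, 2 and 1. Background subtraction gave 2, 2 and 1, then 8 and 15, 12 and 10, 6 and 8. The scanner's processed signal gave 4, 2 and 0, then 7 and 17, 3 and 9, 4 and 8. Loess with Aquantile gave 2, 0 and 0, then 4 and 16, 3 and 6, 5 and 6. Scaling to the 75th percentile gave 1, 1 and 0, then 2 and 12, 0 and 5, 3 and 4, and moved the median of all genes to -0.34, -0.35 and -0.055. No filter on dim spots gave 0 throughout. Spots well above background in all mice gave 2, 1 and 0, then 1 and 13, 0 and 6, 5 and 6. The median of probes gave 1 member in MRL/lpr against MRL/+. No dye term gave 2 and 2 regulators between the lpr groups. No array block gave 0, 1 and 0, then 9 and 12, 8 and 6, 3 and 5. Same-numbered mice share a dye, and the labels give no other link between them. With the dye removed, their deviations from the group means correlated between -0.28 and 0.48 (-0.13 and 0.72 with it), not above 0.1 in every pair, so they were not taken as paired. The replicate block gave 2, 0 and 1, then 10 and 14, 11 and 6, 5 and 5, with Actb -0.72 (limma adjusted p = 0.0313) and Tmsb10 0.46 and 0.54. Fitting only the groups compared gave 1 and 1 regulators in Fn14ko and 2 and 2 between the lpr groups. The methods' t-test after adjustment gave 1 and 1, 0 and 0, 1 and 0. Cy3 mice only, chosen after seeing the data, gave 3 and 8, 1 and 3, 1 and 2, and leaving out both MRL/+ Cy5 mice, also chosen after, gave 1 and 4, 0 and 0, 2 and 1. The calls over all genes moved with these settings. From 2492, 165 and 790 they went to 5140, 2837 and 2849 with subtraction, 3062, 1012 and 1889 with the processed signal, 5070, 2068 and 2140 with loess, 2968, 604 and 947 at the 75th percentile, 5189, 1881 and 1782 with no array block, 6290, 2012 and 1968 with the replicate block, and 721, 2 and 181 with the methods' t-test. They were 22, 0 and 32 of 29149 with no dim filter, 2090, 805 and 1133 of 7027 for spots well above background, 1356, 166 and 469 in Cy3 mice, and 871, 6 and 538 without the MRL/+ Cy5 mice. Among fits without 1 mouse, leaving out MRL/+ replicate 4 gave the fewest calls against MRL/+ (781 in MRL/lpr and 8 in Fn14ko), and leaving out MRL/+ replicate 3 the most (5551 and 2164).

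Pfn1 stayed below 0 against MRL/+ throughout, at -2.30 and -2.14 with no dim filter and -3.54 in Fn14ko with Cy3 mice only. With 1 mouse left out it ran from -3.19 to -2.69 in MRL/lpr, -3.18 to -2.71 in Fn14ko and -0.27 to 0.29 between them. Regulator counts then ran from 1 to 5 higher and 3 to 7 lower, 0 to 3 and 0 to 3, and 1 to 3 and 0 to 1.

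Members called under other settings included Cfl1 with the processed signal (-0.86 in MRL/lpr, -1.02 in Fn14ko). Tmsb4x was called with subtraction (-0.43 and -0.63) and, in MRL/lpr, with the median of probes (-0.86). In Fn14ko Tmsb4x was also called at the 75th percentile (-0.79) and for spots well above background (-0.76). In Fn14ko Cfl2 was called with subtraction (0.43) and Dstn with no array block (0.76), and between the lpr groups Tmsb10 with subtraction (0.47).

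Signs changed as follows, and the cause was not tested. The reported values of these were near 0 or not called, but Actg1 in Fn14ko passed the threshold with the processed signal. In MRL/lpr against MRL/+, Dstn was -0.011 with subtraction, -0.42 with the processed signal, -0.13 with loess, -0.094 at the 75th percentile, -0.062 for spots well above background, -0.00092 in Cy3 mice and -0.21 without the MRL/+ Cy5 mice. Cfl2 was -0.17, -0.013 and -0.035 with the processed signal, loess and the 75th percentile, and Cfl1 0.065 with the median of probes. With no dim filter Pfn2, Cfl1, Actg1 and Tmsb4x were 0.45, 0.41, 0.45 and 0.33, and in Fn14ko Cfl1, Actb, Tmsb4x and Tmsb10 were 0.28, 0.51, 0.19 and 0.65. In Fn14ko, in the order subtraction, processed, loess, 75th percentile, well above background, Cy3 mice and without MRL/+ Cy5 mice, Pfn2 was -0.036, -0.23, -0.10, -0.19, -0.17, -0.29 and -0.20, and Actg1 -0.092, -0.74, -0.034, -0.25, -0.23, -0.27 and -0.27. Actg1 was -0.00066 with marked spots kept and -0.17 with the median of probes. Tmsb10 was 0.090 in Cy3 mice and 0.0040 without MRL/+ Cy5 mice. Between the lpr groups Pfn1 was -0.019, -0.065, -0.021, -0.16, -0.0074 and -0.015 with subtraction, processed signal, loess, no dim filter, marked spots kept and the methods' t-test. Tmsb4x was -0.20 with the median of probes and Pfn2 0.00069 in Cy3 mice.

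With 1 mouse left out, in MRL/lpr against MRL/+, Dstn ran from -0.056 to 0.27, Pfn2 from -0.22 to 0.042 and Actg1 from -0.26 to 5.4e-05. In Fn14ko Pfn2 ran from -0.059 to 0.22, Actg1 from -0.11 to 0.15 and Tmsb10 from -0.20 to 0.00046.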
